A study of Mus musculus with 4 samples.

Results

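The genes that gate passage through G1, the growth phase before DNA synthesis, were followed in hindlimb bud cells of mouse embryos. They were 10 genes picked by symbol from the 25239 rows of the count table: the D cyclins Ccnd1, Ccnd2 and Ccnd3, the kinases Cdk4 and Cdk6, the Cdk inhibitors Cdkn1a, Cdkn1b, Cdkn2c and Cdkn2d, and the retinoblastoma gene Rb1. All 10 were found and all 10 passed the filter on low counts. The embryos were of the FVB strain, at embryonic day 11.5, with the genotype labelled wild-type. Both populations carried the same reporter transgene, H11 hsp68-hZRS(404G>A)-mCherry, which places mCherry, a red fluorescent protein, under a human ZRS limb enhancer altered at one base and inserted at the H11 safe-harbour site. One group was anterior hindlimb cells sorted as mCherry+ and the other was central hindlimb cells sorted as mCherry-, with 2 libraries each. Limb position and reporter activity therefore differ together between the groups and cannot be told apart. The labels do not say how many embryos went into a library or whether the libraries came from separate litters, so p-values measure only the spread between these libraries, which may be technical.

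D cyclins are made in response to growth signals and switch on Cdk4 and Cdk6. The active kinases phosphorylate the Rb protein, which releases E2F factors and so allows transcription of genes for DNA synthesis. Inhibitors of the Ink4 type, here Cdkn2c and Cdkn2d, bind Cdk4 and Cdk6 directly, whereas those of the Cip/Kip type, here Cdkn1a and Cdkn1b, bind cyclin-kinase complexes and act above all on Cdk2. Limb bud mesenchyme is a proliferating tissue, and cells that turn to muscle leave the cycle as they differentiate.

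The libraries held 30080925 to 33257383 counts. A gene was called where the quasi-likelihood test of edgeR, adjusted by the Benjamini-Hochberg method, gave a p-value below 0.05. Of 14610 genes tested, 22.9% met this, 10.7% higher and 12.3% lower in anterior cells. Without anterior replicate 2 the calls fell from 3351 to 2009. Levels are given as CPM, the customary scaling of counts to library size, after TMM adjustment of the sizes. Limb mesenchyme and hindlimb markers were present in every library, where Prrx1, Twist1, Msx1, Pitx1, Tbx4 and Pdgfra summed to 2181 to 2372 CPM. The sum covers differences in both directions. In anterior cells Msx1 was 9.56-fold and Twist1 1.77-fold higher, and Pdgfra was 2.26-fold lower, each of them called. Prrx1, Pitx1 and Tbx4 were not called. Erythroid markers summed to 3300 and 8406 CPM in the anterior libraries and to 8.28 and 11.1 CPM in the central ones.

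Of the 10 genes, Cdkn1a stood far from the rest: it was 11.6-fold lower in anterior than in central cells. Ccnd3 was 1.25-fold higher in anterior cells. The other 8 were not called, with fitted log2 differences from -0.23 for Ccnd1 to 0.40 for Cdkn2d. The 2 genes called of 10 are a share near the 22.9% of all tested genes. The median log2 fold change of the 10 genes was 0.01, against -0.01 over all tested genes. In 6 of the 10 genes the 2 populations did not overlap, which also held for 63.5% of all tested genes.

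**Figure D1:**
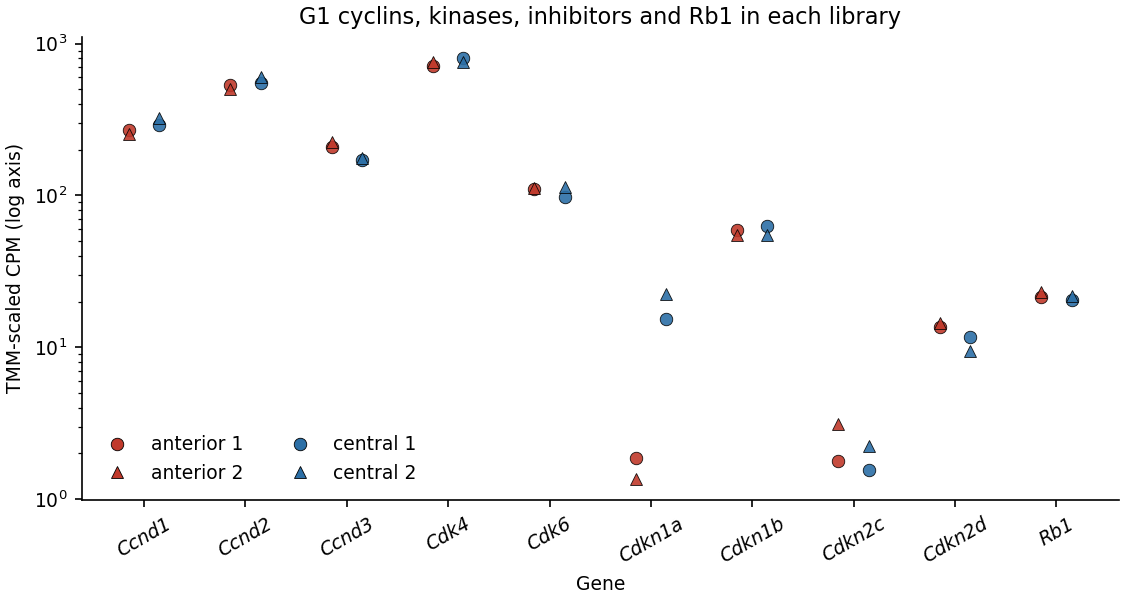
TMM-scaled CPM on a log axis for each of the 10 genes, with 1 point per library (red anterior, blue central; circles replicate 1, triangles replicate 2). Cdkn1a is the gene whose red and blue points lie far apart, at 1.36 and 1.86 CPM against 15.4 and 22.3 CPM.

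The D cyclins did not differ in one direction. Ccnd3, a D cyclin that is broadly expressed (chr17:47505051-47599691, plus strand, GENCODE M21 on GRCm38), measured 210 and 223 CPM in anterior cells against 170 and 177 CPM in central cells. Both anterior values lay above both central values. The log2 fold change was 0.32 ± 0.07 (SE), with a 95% interval of 0.17 to 0.47 and an edgeR adjusted p-value of 0.00899. The call was lost without anterior replicate 2 (log2 fold change 0.28, edgeR adjusted p-value 0.107). In the GENCODE M21 annotation, 361 exonic bases of Ccnd3 (4.11% of its exons) overlap Bysl on the other strand, a gene that was itself higher in anterior cells, at 59.3 and 59.8 against 43.2 and 43.7 CPM. Whether the counting used strand is not given in the sources used here, so reads from that stretch cannot be assigned to one gene.

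Ccnd1, the D cyclin best known as a target of growth factor signalling (chr7:144929931-144939925, minus strand), measured 269 and 254 CPM in anterior cells and 290 and 324 CPM in central cells. The central values were the higher ones, without overlap. The log2 fold change was -0.23 ± 0.07 (SE; 95% interval -0.39 to -0.06) and the edgeR adjusted p-value was 0.0520, just outside the threshold. It lay inside the threshold in 8 of 10 other settings of scaling, filter and test, with adjusted p-values from 0.0279 to 0.0586 over the 10, among them 0.0493 with replicate number as a block. When a library was left out, it was called only without central replicate 1 (edgeR adjusted p-value 0.00159, log2 fold change -0.30). The other 3 of these fits gave adjusted p-values of 0.108 to 0.35, and the log2 fold change shrank to -0.15 without central replicate 2. Its exons share 1100 bases, 23.4% of their length, with LTO1 on the other strand, which measured 19.3 to 22.9 CPM over the libraries.

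Ccnd2, the D cyclin known for its part in ovarian granulosa cell growth (chr6:127125162-127152193, minus strand), measured 531 and 506 CPM in anterior cells and 552 and 605 CPM in central cells. The central values were again the higher ones and the groups did not overlap, but the gene was not called (log2 fold change -0.16 ± 0.07 SE, 95% interval -0.31 to 0.00, edgeR adjusted p-value 0.146). When a library was left out, it was called only without central replicate 1 (edgeR adjusted p-value 0.0227). The other 3 fits gave adjusted p-values of 0.286 to 0.569, and the log2 fold change shrank to -0.087 without central replicate 2.

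Levels of different genes were set beside each other per kilobase of merged exons. On that scale Ccnd1 and Ccnd2 were alike, at means of 60.3 and 58.3 CPM per kb over the 4 libraries (range 53.9 to 68.7 and 53.8 to 64.3), and their order is not resolved. Ccnd3 was lower, at 22.2 CPM per kb (19.4 to 25.5). These levels rest on the length used. Merged exons and longest transcript were 8775 and 3858 bases for Ccnd3, but 4709 and 3740 bases for Ccnd1. By longest transcript the gap between these genes would be smaller. Within each library, Ccnd3 made up 17.4% and 19.1% of the summed D cyclin level in anterior cells against 13.9% and 13.2% in central cells. Ccnd1 made up 41.6% and 40.5% against 44.1% and 44.9%, and Ccnd2 41.1% and 40.4% against 42.0% and 42.0%. So the D cyclin pool held 4.71 percentage points more Ccnd3 in anterior cells. Such shares do not depend on library scaling, and none of the 3 overlapped between the groups, but 2 libraries against 2 cannot go below a 2-sided exact permutation p of 0.333, which is what each of the 3 shares gave.

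**Figure D2:**
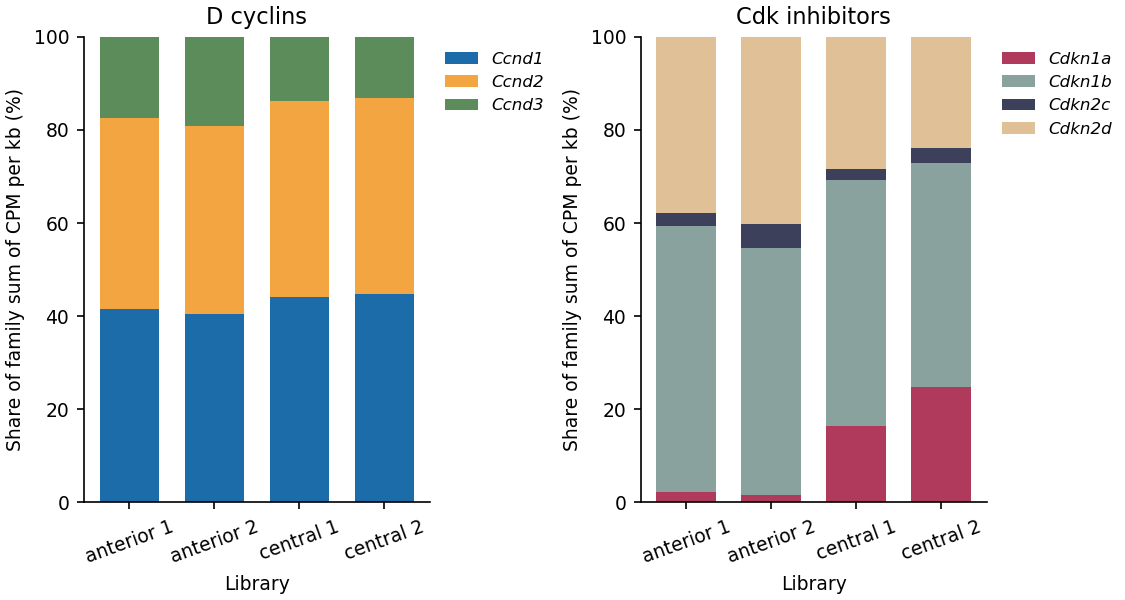
Share of each gene in its family's summed CPM per kb, as bars from 0 to 100% for each library. The inhibitor sum leaves out Cdkn1c. The Ccnd3 segment is larger in the anterior libraries (17.4% and 19.1% against 13.9% and 13.2%), and the Cdkn1a segment is larger in the central ones (16.5% and 24.8% against 2.30% and 1.69%).

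Cdk4, a kinase partner of the D cyclins (chr10:127063534-127067920, plus strand), had the highest level per length of the 10 genes, at 234 CPM per kb (221 to 249 over the libraries). It measured 717 and 753 CPM in anterior cells and 808 and 759 CPM in central cells. The groups did not overlap, but anterior replicate 2 and central replicate 2 were close, and the gene was not called (log2 fold change -0.09 ± 0.07 SE, 95% interval -0.24 to 0.06, edgeR adjusted p-value 0.364). Of its exonic bases, 19.7% are shared with Tspan31 on the other strand, which was not called either. Cdk6, its paralogue (chr5:3341485-3531008, plus strand), measured 110 and 113 CPM against 97.8 and 114 CPM, with overlapping groups (log2 fold change 0.07 ± 0.09 SE, 95% interval -0.13 to 0.26, edgeR adjusted p-value 0.630). Per kilobase, Cdk6 stood at 7.77 CPM, or 2.74% to 3.43% of the summed Cdk4 and Cdk6 level in any library. The share of Cdk6 did not separate the populations (exact permutation p 0.667).

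The promoter of Cdk4 is shown because the most abundant of the 10 genes also carries an uncommon run of one motif. The 250 bases before its annotated start (RefSeq, GRCm38.p6, plus strand, chr10:127063285-127063534) hold 4 copies of the E-box CACGTG, the sequence bound by Myc-type factors, whose first bases lie 172, 118, 98 and 11 bases before the start. At least 1 such E-box is found in 6.02% of 32851 windows of the same length before annotated starts, and 4 or more in 0.0213%. A GC box, GGGCGG on either strand, lies 80 bases before the start and occurs in 32.7% of all windows. Capitals mark both motifs.
Cdk4: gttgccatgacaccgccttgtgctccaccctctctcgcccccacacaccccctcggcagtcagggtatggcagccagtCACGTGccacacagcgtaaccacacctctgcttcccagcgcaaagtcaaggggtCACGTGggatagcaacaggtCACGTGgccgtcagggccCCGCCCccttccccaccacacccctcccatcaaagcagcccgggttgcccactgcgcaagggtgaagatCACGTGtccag

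Cdkn1a, a Cip/Kip inhibitor induced by p53 and by many differentiation and stress signals (chr17:29090976-29100727, plus strand), was counted 62 and 40 times in anterior cells and 474 and 721 times in central cells. These correspond to 1.86 and 1.36 CPM against 15.4 and 22.3 CPM. Each central library lay far above both anterior libraries. The log2 fold change was -3.54 ± 0.26 (SE), an 11.6-fold lower level in anterior cells with a 95% interval of 7.71 to 17.5-fold and an edgeR adjusted p-value of 3.39e-05. By fitted fold change it ranked 247 among 7475 genes with a lower value in anterior cells, and 97.9% of tested genes had a difference of that size or smaller. It remained called in each of 10 other settings and in each of the 4 fits that left out a library, with log2 fold changes from -3.78 to -3.25 in the latter. In a bulk sample, fewer cells that express the gene and less RNA per cell cannot be told apart. Of its exonic bases, 7.68% are shared with AC167363.2 on the other strand.

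RefSeq annotates a pair of starts for Cdkn1a on the plus strand of chromosome 17 (GRCm38.p6), and the 250 bases before each are shown because this gene carries the main difference. The upstream window (chr17:29090729-29090978) holds 2 matches to the p53 half-site consensus, beginning 73 and 51 bases before the start. Such a match occurs in 7.13% of all windows. Only exact matches to RRRCWWGYYY were sought, where R is A or G, W is A or T, and Y is C or T. The stretch tgacatgttc, which directly follows the match 51 bases before the start, departs from it at its opening T and is unmarked. The downstream window (chr17:29093519-29093768) holds 2 GC boxes, GGGCGG, 104 and 46 bases before the start, and the TATA-type sequence CTATAA 26 bases before it, which 7.26% of all windows hold. Capitals mark these matches, searched on both strands, and within these windows no match overlaps another. The counts are per gene and do not say which start was used.
Cdkn1a upstream start: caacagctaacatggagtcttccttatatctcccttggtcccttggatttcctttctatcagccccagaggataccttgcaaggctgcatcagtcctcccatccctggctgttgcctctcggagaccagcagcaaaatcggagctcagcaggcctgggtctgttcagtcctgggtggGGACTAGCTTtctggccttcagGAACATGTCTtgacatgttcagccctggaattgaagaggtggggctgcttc
Cdkn1a downstream start: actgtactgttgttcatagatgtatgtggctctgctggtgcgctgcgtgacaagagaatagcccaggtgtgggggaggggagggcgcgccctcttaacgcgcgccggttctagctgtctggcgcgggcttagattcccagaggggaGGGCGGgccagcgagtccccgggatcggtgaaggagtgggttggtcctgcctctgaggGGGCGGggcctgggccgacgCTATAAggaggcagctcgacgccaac

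Of the 10 genes, 7 had entries among the RefSeq promoters, with 10 windows in all. Ccnd3, Cdkn1a and Cdkn2c had 2 windows each, so the windows are not all of separate genes. Ccnd1, Ccnd2 and Rb1 had none. A GC box was present in 7 of the 10 windows, and in 32.7% of all windows. A p53 half-site match was present in 2, and in 7.13% of all windows. Those 2 were the windows of the upstream Cdkn1a start and of Cdkn2d (where it overlaps a GC box). An E2F site (TTTCGCGC, TTTGGCGC, TTTCCCGC or TTTGCCGC) was present in 0 of the 10, and in 1.86% of all windows.

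The other 3 inhibitors among the 10 genes were not called. Cdkn1b, the Cip/Kip inhibitor that restrains Cdk2 in resting cells (chr6:134920401-134925513, plus strand), measured 59.1 and 54.9 CPM in anterior cells and 63.1 and 55.1 CPM in central cells. The values lay close together, and the gene was not called (log2 fold change -0.05 ± 0.09 SE, 95% interval -0.27 to 0.16, edgeR adjusted p-value 0.741). Cdkn2d, an Ink4 inhibitor (chr9:21288410-21291407, minus strand), measured 13.6 and 14.4 CPM against 11.8 and 9.52 CPM. Its anterior values were both the higher ones, but it missed the threshold (log2 fold change 0.40 ± 0.17 SE, 95% interval 0.02 to 0.77, edgeR adjusted p-value 0.125). Its log2 fold change ranged from 0.25 without central replicate 2 to 0.56 without central replicate 1, with edgeR adjusted p-values of 0.0629 to 0.406 over the 4 fits that left out a library. Cdkn2c, the other Ink4 gene here (chr4:109660876-109667189, minus strand), was sparse, with 59 and 91 counts against 48 and 72. Its groups overlapped and its interval was wide (log2 fold change 0.36, 95% interval -0.57 to 1.29, edgeR adjusted p-value 0.582).

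Within each library, Cdkn1a made up 2.30% and 1.69% of the summed level of the 4 inhibitors per kilobase in anterior cells, and 16.5% and 24.8% in central cells. Cdkn2d made up 37.8% and 40.3% against 28.45% and 23.9%, and Cdkn1b 57.0% and 52.98% against 52.8% and 48.0%. Shares of a sum are tied to each other, so a larger share need not mean a higher level. Cdkn1b itself was not higher in anterior cells, at 59.1 and 54.9 CPM against 63.1 and 55.1 CPM. Cdkn1b had the highest level of these 4 genes in every library, at 54.9 to 63.1 CPM over 4.552 kb of merged exons. Cdkn1c is not among them and stood far higher. It measured 492 and 397 CPM in anterior and 936 and 742 CPM in central cells, over 2.039 kb. The shares and the sum therefore do not describe all Cdk inhibitors. The sum of the 4 genes was 22.8 and 22.8 CPM per kb in anterior cells against 26.2 and 25.3 in central cells. The exact permutation p was 0.333 for Cdkn1a, Cdkn1b and Cdkn2d, the smallest this design allows, and 0.667 for Cdkn2c.

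Rb1, whose product holds E2F factors in check (chr14:73183673-73325822, minus strand), measured 21.4 and 23.0 CPM in anterior cells and 20.6 and 21.7 CPM in central cells. The groups overlapped and the gene was not called (log2 fold change 0.07 ± 0.11 SE, 95% interval -0.19 to 0.32, edgeR adjusted p-value 0.714). Per kilobase it ranked below Cdk4, Ccnd1, Ccnd2, Ccnd3, Cdkn1b, Cdkn2d and Cdk6, at 3.61 CPM. Cdkn1a and Cdkn2c followed, at 2.88 and 0.81 CPM per kb. This order is by merged exons, and close genes can change places with the length used. The longest transcript has 4656 bases for Rb1 and 2080 for Cdkn1a, against 6015 and 3553 merged exon bases. Of the neighbours in that order, Ccnd1 and Ccnd2 had overlapping ranges over the libraries, as did Cdkn2d (6.04 to 9.16) and Cdk6 (6.99 to 8.18). Cdkn1a ranged from 0.38 to 6.27 CPM per kb, so it stood below Cdkn2c (0.58 to 1.16) in anterior cells and above Rb1 (3.42 to 3.83) in central cells.

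**Figure D3:**
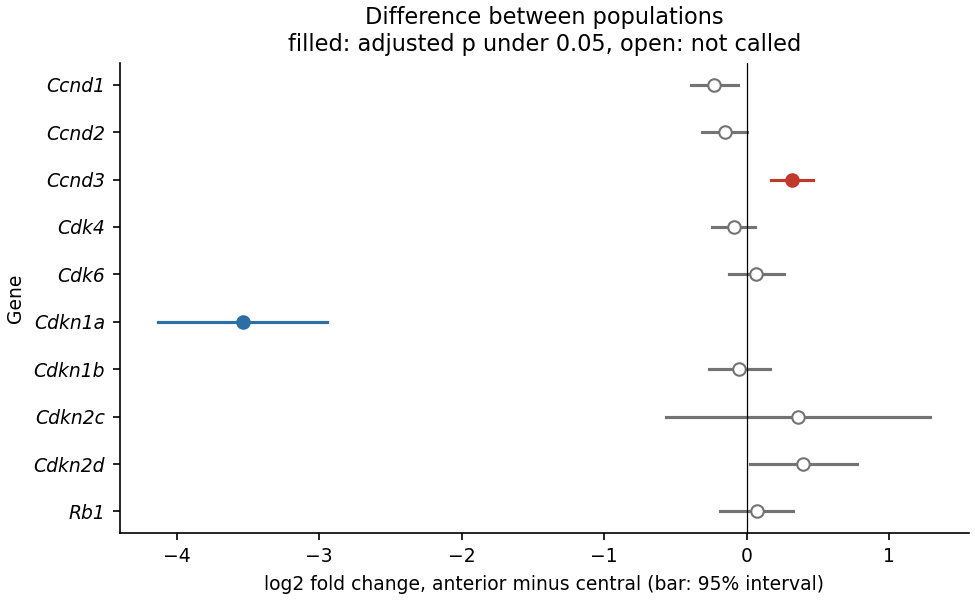
Log2 fold change of each gene, anterior minus central, with its 95% interval as a bar; filled points passed an adjusted p-value of 0.05. Cdkn1a lies at -3.54 and Ccnd3 at 0.32, while the 8 open points lie between -0.23 and 0.40.

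The genes of the same pathway were read from lists of 83 genes. The next step after D cyclins is taken by cyclins E and A with Cdk2. Of 10 genes in that list, 3 were called, each higher in anterior cells, with a list median of 0.12, beside 10.7% of all tested genes called higher and 22.9% called in either direction. Ccna2, cyclin A of S phase, measured 231 and 240 CPM against 179 and 181 CPM (log2 fold change 0.39 with an edgeR adjusted p-value of 0.00249). Cks1b, a small subunit of Cdk complexes, rose by 0.34 and Ccne2, a cyclin E, by 0.44 on the log2 scale (edgeR adjusted p-values 0.00756 and 0.0376). Both lost their call without anterior replicate 2, leaving 1 gene called in the list. Ccne2 also lost its call without either central library (adjusted p-values 0.0691 and 0.0666), and with library size alone or upper-quartile scaling (0.0503 and 0.0542). Ccne1 and Cdk2 had log2 fold changes of 0.08 and 0.12 and were not called.

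Of the inhibitors and pocket proteins outside the 10 genes, 3 of 5 were tested. Cdkn1c, the Cip/Kip inhibitor of embryonic tissues and an imprinted gene, measured 492 and 397 CPM in anterior cells and 936 and 742 CPM in central cells. It was 1.89-fold lower in anterior cells, with no overlap (log2 fold change -0.92 ± 0.13 SE and edgeR adjusted p-value 0.00123). The Rb relatives Rbl1 and Rbl2 were not called, at log2 fold changes of -0.03 and -0.23. Cdkn2a and Cdkn2b, the other Ink4 genes, had at most 4 counts in any library and were not tested.

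Of 10 E2F and DP factors, a group that includes the transcription factors bound by Rb, 5 were called. Each was higher in anterior cells, with a list median of 0.22. The share called higher among all tested genes was 10.7%. E2f7, a repressor E2F, measured 129 and 120 CPM against 79.8 and 102 CPM (log2 fold change 0.45, edgeR adjusted p-value 0.0201). E2f5 rose by 0.38, E2f1 by 0.29, E2f4 by 0.23 and the partner Tfdp1 by 0.20 on the log2 scale, with edgeR adjusted p-values of 0.0188 to 0.0444. The count of 5 was not stable. It fell to 1 without anterior replicate 1 and to 1 without anterior replicate 2, to 3 without central replicate 1, and to 2 with library size alone or upper-quartile scaling.

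Among 18 S-phase genes known as E2F targets, 8 were called, each higher in anterior cells, beside 10.7% of all tested genes called higher. The list median was 0.17. Orc1, of the origin recognition complex, rose by 0.46, Rrm2, a ribonucleotide reductase subunit, by 0.43, and Uhrf1, which maintains DNA methylation after replication, by 0.40 on the log2 scale (edgeR adjusted p-values 0.00957, 0.00253 and 0.00598). Orc1 was not called without anterior replicate 2 (adjusted p-value 0.0705). The helicase subunit Mcm2, at 402 and 412 against 376 and 383 CPM, was not called (adjusted p-value 0.260). The count fell to 3 without anterior replicate 1, to 2 without anterior replicate 2 and to 6 without central replicate 1, rose to 10 without central replicate 2, and was 5 with library size alone or upper-quartile scaling.

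All 12 mitotic genes were called higher in anterior cells, beside 10.7% of all tested genes. The list median was 0.49. Ccnb1, cyclin B, measured 252 and 258 CPM against 176 and 173 CPM (log2 fold change 0.55 ± 0.06 SE and edgeR adjusted p-value 0.000358). Cdk1, its kinase, rose by 0.56 and Aurkb, a mitotic kinase, by 0.55 on the log2 scale. The number called was 11 or 12 in the 10 other settings and 9 to 12 when a library was left out. Cell cycle genes were already known from earlier results of these data to lie higher in anterior cells, so this count is not independent support.

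Because Cdkn1a is a textbook p53 target, p53 and 16 genes linked to it were read beside it. Of 16 tested, 4 were called higher and 5 lower in anterior cells, with a median of -0.07. Over all tested genes, 10.7% were called higher and 12.3% lower. Perp, a gene of cell junctions that is also in the surface ectoderm list, was lower, with 10 and 0 counts against 111 and 470 (edgeR adjusted p-value 0.00263), but was not called with limma-voom (adjusted p-value 0.0675). Pmaip1, a BH3-only death gene, went the opposite way, at 413 and 437 CPM in anterior cells against 117 and 105 CPM (log2 fold change 1.94 ± 0.08 SE and edgeR adjusted p-value 1.40e-06). Plk2, a kinase induced by stress, measured 23.5 and 15.6 CPM against 64.7 and 48.2 CPM (log2 fold change -1.53 ± 0.20 SE and edgeR adjusted p-value 0.000863). Btg2, an antiproliferative gene, fell by 1.04 and Trp53inp1 by 0.87 on the log2 scale, with edgeR adjusted p-values of 0.000789 and 0.00013. Phlda3 fell by 0.76, a call lost without anterior replicate 1 or central replicate 1 (edgeR adjusted p-values 0.158 and 0.0647).

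The other 3 genes called higher in the p53 list changed less than Pmaip1. Aen, a nuclease, rose by 0.54, Trp53, the p53 gene, by 0.31 and Bax, a pore-forming death gene, by 0.29 on the log2 scale. The calls of Trp53 and Bax were lost without anterior replicate 2 (edgeR adjusted p-values 0.0649 and 0.277), leaving 2 higher. Trp53 was also not called without anterior replicate 1 (0.0616), and Bax without central replicate 2 (0.0864) or with library size alone or upper-quartile scaling (0.0618 and 0.0707). Mdm2, the p53 feedback inhibitor, stayed within 87.0 to 89.4 CPM over the 4 libraries (edgeR adjusted p-value 0.809), and its log2 fold change of 0.03 changed sign with library size alone and with upper-quartile scaling.

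Of 5 genes for D cyclin turnover and the Cdk4 chaperone, 0 were called by edgeR, DESeq2 or limma-voom, and 0 had an unadjusted p-value under 0.05. By edgeR, 22.9% of all tested genes were called. Of 6 transcription factors that act on Cip/Kip genes, 1 was called, beside 10.7% of all tested genes called higher: Sp1, with a log2 difference of 0.22 and an edgeR adjusted p-value of 0.0470 in favour of anterior cells. That call was lost without anterior replicate 1, anterior replicate 2 or central replicate 1, with a mean count of at least 50, and with library size alone or upper-quartile scaling.

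**Figure D4:**
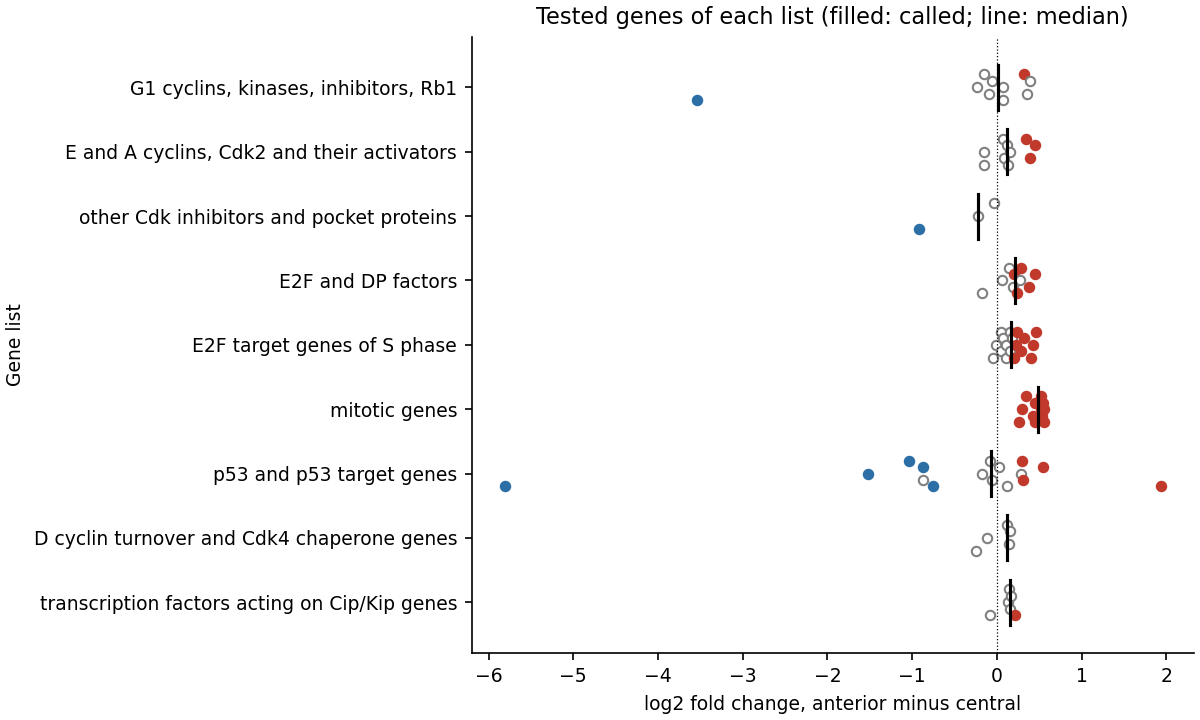
Log2 fold changes, anterior minus central, of the tested genes of each list; filled points were called, red higher and blue lower, and the line is the list's median. All 12 mitotic genes lie to the right of 0, with a median of 0.49, while the p53 list spreads to both sides around a median of -0.07.

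By distance between centred log2 CPM profiles over the 4 libraries, the pathway gene nearest to Ccnd3 among 80 tested was Tk1, a thymidine kinase of S phase (distance 0.0532), followed by Cks1b (0.0683). The gene nearest to Cdkn1a was Perp (1.08), followed by Plk2 (1.80). The log2 values were not scaled to a common spread, so the distance depends on the size of the difference between populations. The log2 fold changes were -3.54 for Cdkn1a, -5.81 for Perp and -1.53 for Plk2. With 4 libraries the nearest genes are a description only.

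Several marker lists of other cell types were lower in anterior cells, as Cdkn1a and Cdkn1c were, beside 12.3% of all tested genes called lower. Myogenic markers (7 of 7 called lower in anterior cells) summed to 0.75 and 0.58 CPM in the anterior libraries and to 93.9 and 78.9 CPM in the central ones, with 2 of the 7, Pax7 and Myog, at 0 counts in both anterior libraries. Surface ectoderm markers (9 of 10 lower) summed to 10.3 and 10.2 against 58.8 and 195 CPM, with 4 of the 10 called by limma-voom. Endothelial markers (4 of 8 lower) summed to 13.4 and 19.8 against 36.3 and 45.2 CPM and chondrogenic markers (5 of 8 lower, 1 not tested) to 414 and 302 against 1536 and 1200 CPM. Between the central libraries, replicate 2 had more Cdkn1a (22.3 against 15.4 CPM) but less Cdkn1c (742 against 936 CPM). Its ectoderm and endothelial sums were higher, and its myogenic and chondrogenic sums lower. Between the anterior libraries, replicate 2 had less Cdkn1a (1.36 against 1.86 CPM) and less Cdkn1c (397 against 492 CPM). There its endothelial sum was higher, its ectoderm sum nearly equal, and its myogenic and chondrogenic sums lower. The part of these cell types in the Cdkn1a and Cdkn1c differences was not tested.

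Markers that rose in anterior cells stood beside Ccnd3 and the mitotic genes. Over all tested genes, 10.7% were called higher and 12.3% lower. Of the erythroid list, 8 of 8 tested genes were called higher, with Hba-a1 and Hba-a2 at 0 in all libraries. Macrophage markers (3 of 6 higher) summed to 17.9 and 13.5 against 7.34 and 7.32 CPM. Anterior replicate 2 held more erythroid RNA than replicate 1 (8406 against 3300 CPM) and slightly more Ccnd3 (223 against 210 CPM). The mitotic genes summed to nearly the same level in both, at 3591 CPM in anterior replicate 2 and 3570 CPM in replicate 1. The part of these cells in the Ccnd3 and mitotic gene results was not tested. Immediate early genes, which dissociation can induce, were mixed, with 1 of 8 called higher and 2 lower.

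**Figure D5:**
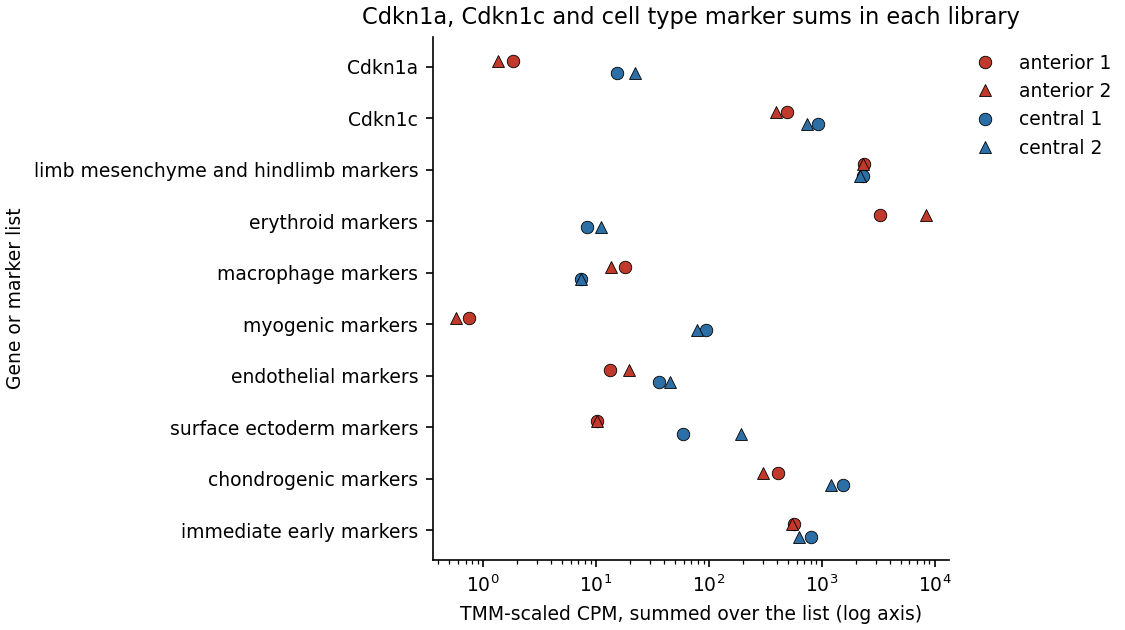
TMM-scaled CPM on a log axis for Cdkn1a, Cdkn1c and the summed markers of each cell type, 1 point per library (red anterior, blue central). Myogenic, ectoderm, endothelial and chondrogenic sums lie lower in anterior cells, as do Cdkn1a and Cdkn1c, while erythroid sums lie higher (3300 and 8406 against 8.28 and 11.1 CPM).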

How the data were processed

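The deposited table holds whole-number read counts per gene symbol, not normalized by the authors, for the 4 libraries. Per the submitters' processing notes, STAR 2.7.9a, HTSeq and DESeq2 were used with the mm10 build; their roles, the annotation and the strand setting are not given in the sources used here. Even numbers made up 72.8% to 75.6% of counts between 1 and 10, so halved counts were run as an alternative. Columns were matched to samples by domain name and number, and no column was left over.

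Counts were fitted with edgeR 4.0.16 in R 4.3.3: filterByExpr, TMM, quasi-likelihood F test, Benjamini-Hochberg over 14610 genes, threshold 0.05. The SE is the absolute log2 fold change divided by the square root of F, and intervals use the fit's 8.63 degrees of freedom. CPM values are TMM-scaled; the floor of 3 counts is 0.0902 to 0.0997 CPM, for counting error only. Lengths and overlaps came from GENCODE M21 (GRCm38), promoters from RefSeq GRCm38.p6. Shares were compared by exact 2-sided permutation tests (scipy 1.17.1).

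The rule for named genes took all 10 members and allowed any gene of the pathway lists, the 3 called with the largest change first, and for each called member the pathway genes of nearest profile. The members, gene lists and alternatives were chosen with earlier results of these data known. The alternatives were 3 other scalings, the DESeq2 1.42.0 Wald test, limma-voom (limma 3.58.1), 2 filters, the replicate block, halved counts, removal of 43 marker genes, 0.01 as the threshold, testing against 1.5-fold, and each library left out. Tested on simulated counts for this comparison (14610 genes, 5 draws of 200 changed genes), the fit recovered 43.6% of changes of 0.5, 70.4% of 1 and 91.8% of 3 on the log2 scale, and 9.76% of calls were false.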

Additional observations from a re-analysis of the deposited data

How the results depend on the processing

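The count of genes called was 3351 (1559 higher, 1792 lower). It fell at a threshold of 0.01 to 1690 (721 and 969) and against a 1.5-fold change to 1035 (278 and 757), both stricter criteria, and ranged from 2009 to 3697 (809 to 1884 higher, 1200 to 1813 lower) when each library was left out. In those fits the lone library of a group is assumed to vary like the other group.

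Of the G1 genes, 9 of 10 kept direction and call in all 10 settings of scaling, filter, test, block, halved counts and marker removal, and 4 of 10 in all 4 fits that left out a library. The exception in the former was Ccnd1, which raised the number called lower from 1 to 2 with library size alone, upper-quartile factors, the DESeq2 Wald test, either other filter, the replicate block, halved counts and removal of the marker genes; the cause was not tested. Against a 1.5-fold change 1 was called (0 higher). With each library left out, 1 to 4 were called (0 to 1 higher, 1 to 3 lower). Without central replicate 1, Cdk6 turned to -0.0401, Cdkn1b to 0.0504 and Ccng1 to 0.0731 on the log2 scale; without anterior replicate 2, Cdkn1b turned to 0.00565, Cdkn2c to -0.0916 and Rbl1 to 0.00754; without central replicate 2, Rbl2 turned to 0.0149. The other ends of the ranges were 0.187 for Cdk6, -0.145 for Cdkn1b, 0.715 for Cdkn2c, -0.0616 for Rbl1, -0.431 for Rbl2 and -0.167 for Ccng1. Mdm2 turned to -0.00193 with library size alone and to -0.00841 with upper-quartile factors. None of these was called.

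Of the 37 other pathway genes named, 29 kept direction and call in all 10 settings and 20 in all 4 fits without a library. Counts called higher with each library left out ranged from 1 to 3 for the E and A cyclin list, 1 to 5 for E2F and DP factors, 2 to 10 for S-phase genes, 2 to 4 for the p53 list and 0 to 1 for Cip/Kip factors. With library size alone and with upper-quartile factors, 2 and 2 E2F and DP factors, 5 and 5 S-phase genes and 0 and 0 Cip/Kip factors were called higher, and 0 Cip/Kip factors with a mean count of at least 50; upper-quartile factors called 1 E2F or DP factor lower. Over all tested genes, the log2 fold change moved by a median of -0.0308 with library size alone and of -0.0374 with upper-quartile factors. The part of that shift in these counts was not tested.

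Differences in share, anterior minus central in percentage points, moved with the length used. By longest transcript they were -2.44 for Ccnd2 (-1.26 by merged exons), 6.36 for Ccnd3 (4.71) and -26.7 for Cdkn1a (-18.7). Without length they were -2.59 for Ccnd2, -1.19 for Cdk4 (-0.335), 1.19 for Cdk6 (0.335), 10.7 for Cdkn1b (4.60) and 6.92 for Cdkn2d (12.8). With each library left out they ranged from -1.58 to -0.933 for Ccnd2, 3.84 to 5.58 for Ccnd3, -0.66 to -0.00918 for Cdk4, 0.00918 to 0.66 for Cdk6, -22.8 to -14.5 for Cdkn1a, 2.17 to 7.04 for Cdkn1b and 10.6 to 15.1 for Cdkn2d.

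Replicate numbers 1 and 2 occur in both groups, but the labels do not say that they pair the libraries, and replicate differences correlated across genes at only 0.064. With the replicate block 3586 genes were called, and of the G1 genes 3, Ccnd1 at a log2 fold change of -0.228 (adjusted p-value 0.0493), Ccnd3 at 0.318 and Cdkn1a at -3.51. Calls near the threshold are the least certain. In the simulation 9.76% of all calls were false, with 200 of 14610 genes changed. Far more genes, 3351, were called here, so that share need not hold for these data.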

Other observations

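Some genes that share exonic bases with the G1 genes on the opposite strand differed between the populations themselves. Lpar6, a receptor gene that shares 408 exonic bases with Rb1, measured 67.0 and 69.4 CPM in anterior cells and 39.2 and 44.5 CPM in central cells, and was called higher (edgeR adjusted p-value 0.000865). Rb1 was not called. Bysl, a ribosome assembly gene at the end of Ccnd3, was called higher (edgeR adjusted p-value 0.00422). Tspan31 beside Cdk4, Rcbtb2 beside Rb1 and LTO1 beside Ccnd1 were not called (edgeR adjusted p-values 0.397, 0.823 and 0.496).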
